A study of Mus musculus with 20 samples.

Results

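Frontal cortex of young adult mice that had been exposed to cocaine before birth was compared with that of saline-exposed mice on 5 arrays, out of 20 in the series. The 5 arrays were chosen by their label, the adult frontal cortex cocaine arrays 1 to 5. Each array held 22575 probes and measured a pair of RNA samples together. The cocaine-exposed mice were offspring of Swiss Webster dams that received 20 mg/kg cocaine hydrochloride under the skin of the neck 2 times a day from embryonic day 8 to embryonic day 18. The saline-exposed mice were offspring of dams injected with saline on the same schedule and pair-fed to the cocaine dams. The offspring then grew up without further treatment and were taken on postnatal day 30, and 5 µg of total RNA from each side was labelled with dendrimer reagents, cocaine in channel 1 and saline in channel 2. The frontal piece was the cerebral wall in front of the level of the striatum. Per the labels each slide of a region came from its own litters, so the 5 arrays were treated as separate samples; the number of adult animals behind a slide is not given. Where another group is set beside them it is the adult occipital cortex (5 arrays, the same treatment, age and control) or the frontal cortex of fetuses of such dams, taken on embryonic day 18, 1 h from the final dose, where each channel held 2 fetuses (5 arrays).

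Every value below is a log2 ratio, cocaine over saline, relative to the median of its array, so that a ratio of 1 is a level 2 times that of saline; means are given ± SE of the limma fit over the 5 arrays, with a p adjusted over all probes and a threshold of 0.05. That direction is likely and not stated, because the labels give the dye of each channel and not which channel was the numerator. Cocaine carried the same dye on all 5 arrays, so a difference between the dyes and a difference between the treatments cannot be told apart. A ratio gives no level: whether a transcript is present in the cortex, and how far a spot stood above background, is unknown, and the labelled tissue could not be checked by the presence of its markers. In tissue RNA, fewer cells of a type and less RNA per cell cannot be told apart either.

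Cocaine blocks the plasma membrane transporters for dopamine, noradrenaline and serotonin, so that the amines stay longer outside the nerve ending. The frontal cortex receives dopamine fibres from the ventral midbrain, noradrenaline fibres from the locus coeruleus and serotonin fibres from the raphe; the cell bodies, and with them most transcripts for amine synthesis and transport, lie outside the cortex, while receptors and breakdown enzymes are made in cortical cells. Pyramidal cells, inhibitory interneurons and, by the end of the first postnatal month, myelinating oligodendrocytes make up most of the cortical wall.

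The difference between cocaine and saline was broad. Of 22575 probes, 12808 (56.7%) passed the threshold, 6159 higher and 6649 lower in cocaine-exposed cortex. Counted by gene, over the 16504 genes named by 1 symbol, the background share was 56.5% in either direction, 29.6% higher and 26% lower, and the probes of another 0.879% disagreed. A list of genes is therefore read against those shares, and a gene with the same sign on all 5 arrays against the 54.5% of probes that had it. The ratios also followed a score of spot brightness built from the ratios themselves and, on some arrays, the place of the spot. With both trends removed from every array, 3962 probes were higher and 4207 lower (36.2% of 22573), and by gene the shares were 37.1% in either direction, 19.1% higher and 17.4% lower. Those values are called detrended below. With a brightness score from the 19 other arrays in place of those of the same age, chosen after seeing the data, the shares by gene were 15.6% higher and 15% lower; counts made that way are called 19-array counts. The score orders a probe only roughly, so its trend was removed in part. For 348 genes with a pair of probes from 1 accession, the scores of the probes, from the adult occipital arrays, correlated at 0.04 (Spearman). Detrending thus moved probes of the same gene by different amounts and can add error as well as remove a trend.

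The breakdown enzymes of the amines moved apart. Maoa, the monoamine oxidase that prefers serotonin and noradrenaline, had ratios of 1.93, 2.0, 1.75, 1.69 and 1.89 on arrays 1 to 5, a mean of 1.85 ± 0.25 (adjusted p = 0.00018, limma). All 5 arrays lay close together, and the detrended mean was 1.54 (adjusted p = 0.00139). Maob, the oxidase found in astrocytes and serotonin neurons, had ratios of -0.17, -1.27, -1.92, -2.17 and -1.91, a mean of -1.49 ± 0.31 (adjusted p = 0.00117, limma). Array 1 stood near 0 and the other arrays well below it. The adult occipital cortex had means of 1.80 for Maoa and -1.09 for Maob.

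The transporters that cocaine binds were low. Slc6a3, the dopamine transporter, had ratios of 1.22, -2.37, -0.62, -2.20 and -1.58, a mean of -1.11 ± 0.42 (adjusted p = 0.0355, limma). Array 1 was high where the other arrays were low, the detrended mean of -0.48 did not pass (adjusted p = 0.378), and the call was lost without replicate 2, 4 or 5 (means -0.80, -0.84 and -0.99). Slc6a2, the noradrenaline transporter, had ratios of -0.52, -2.64, -1.47, -2.19 and 0.23 (mean -1.32 ± 0.37, adjusted p = 0.00742), and without replicate 4 its mean was -1.10 (adjusted p = 0.0503). Slc6a4, the serotonin transporter, had -1.16, -1.44, -0.07, -2.22 and -0.14 (mean -1.01 ± 0.33, adjusted p = 0.0166), and without replicate 4 its mean was -0.70 (adjusted p = 0.0919). For these 3 transporters arrays 2 and 4 gave the lowest ratios. Slc18a2, which loads amines into vesicles, went the other way: its ratios were 1.56, 1.34, 2.18, 1.37 and 1.98, a mean of 1.69 ± 0.26 (adjusted p = 0.000267, limma). Th, the rate-limiting enzyme of dopamine synthesis, had 0.55, 0.23, 0.19, 0.64 and -0.51 and did not pass (mean 0.22 ± 0.27, adjusted p = 0.508). In the whole list for catecholamine synthesis, transport and breakdown, 5 of 15 measured genes were higher and 4 lower, close to the background.

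**Figure D1:**
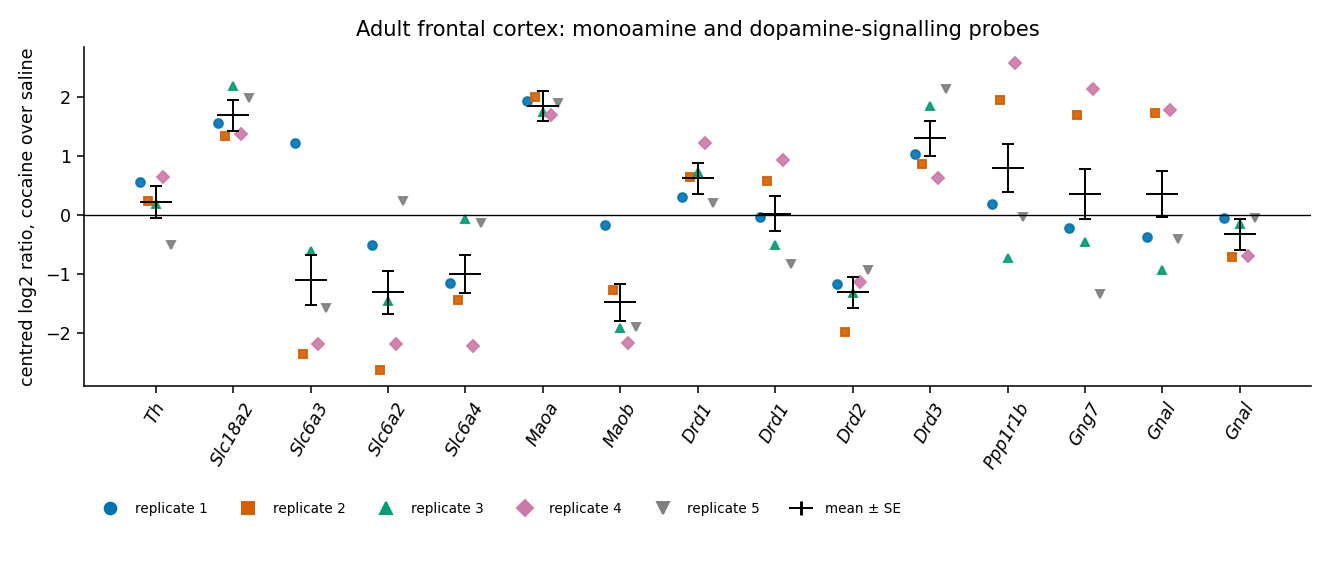
Centred log2 ratio of cocaine over saline (y axis) for 15 probes of monoamine and dopamine-signalling genes (x axis) in adult frontal cortex; each symbol is 1 array and the black bar is the mean ± SE of the limma fit. Maoa lies near 1.85 on every array, while Ppp1r1b, Gng7 and 1 of the Gnal probes are high on replicates 2 and 4 alone.

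Among the dopamine receptors, Drd2, the inhibitory autoreceptor and postsynaptic receptor, was lower: -1.17, -1.99, -1.33, -1.14 and -0.94, a mean of -1.31 ± 0.27 (adjusted p = 0.000948, limma), and still lower when detrended (-0.78, adjusted p = 0.0186). Drd3 was higher, with ratios of 1.03, 0.86, 1.84, 0.63 and 2.14 (mean 1.30 ± 0.29, adjusted p = 0.00186), but its detrended mean was 0.20 (adjusted p = 0.507). Drd1, the main cortical receptor, had a pair of probes whose means of 0.62 and 0.02 did not pass, and whose detrended means of 0.97 and -0.87 passed in opposite directions. Of the 15 measured genes of dopamine receptors and signalling, 8 were higher and 1 lower (53.3% and 6.7%), with a median ratio of 0.79; detrended, 2 were higher and 1 lower. The medians by array were 0.18, 0.97, 0.60, 1.16 and 0.20, so that arrays 2 and 4 stood above the others.

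Several genes of the list that are known from striatal medium spiny neurons, chosen after their values were seen, differed between arrays in that way. Ppp1r1b, which encodes the phosphatase inhibitor DARPP-32, had ratios of 0.18, 1.95, -0.73, 2.58 and -0.03 and did not pass (mean 0.79 ± 0.41, adjusted p = 0.114, limma); without replicate 3 its mean was 1.17 (adjusted p = 0.032). Gng7, a G-protein subunit of those neurons, had -0.23, 1.69, -0.47, 2.14 and -1.34, and Gnal, the stimulatory subunit beside it, had -0.38, 1.72, -0.93, 1.77 and -0.41 on 1 probe. Pde1b, a phosphodiesterase of the same cells, had 0.03, 1.34, 1.06, 2.56 and 0.23 and passed (mean 1.04, adjusted p = 0.0176); without replicate 4 its mean was 0.66 (adjusted p = 0.1), and detrended it was -0.20. In each of the 4, arrays 2 and 4 were the highest. Over all 10 measured genes of the striatum list the medians by array were -0.04, 0.64, 0.16, 0.93 and -0.25, and 3 genes were higher and 3 lower. Without replicates 2 and 4, 7 genes of the dopamine list were higher and 1 lower, with a median of 0.41. The striatum borders the dissected piece; the part of striatal tissue in these values was not tested.

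Genes of the serotonin system were near the background as centred. Of 14 measured genes 2 were higher and 4 lower (28.6%), and detrended 0 were higher and 6 lower (42.9%); the 19-array count was 1 lower. The medians by array were -0.16, -0.45, 0.49, -0.84 and 0.26, on both sides of 0, and without replicate 4 the list median of -0.21 became 0.05. Htr2b was lowest, with ratios of -0.92, -2.61, -2.10, -1.08 and -0.86 (mean -1.51 ± 0.31, adjusted p = 0.00101, limma). Htr2a, the main excitatory serotonin receptor of pyramidal cells, had -0.59, 0.85, 0.87, -1.29 and -0.61, spread over both sides of 0, and did not pass (mean -0.15, adjusted p = 0.716). Its detrended mean of -0.96 passed (adjusted p = 0.0187). Htr1a, the inhibitory receptor, had a mean of -0.56 that did not pass and a detrended mean of -0.93 that did (adjusted p = 0.0159). Htr7 was higher, with 1.40, 1.0, 1.62, 0.35 and 1.81 (mean 1.24 ± 0.29, adjusted p = 0.00208), and did not pass when detrended (0.46).

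Other receptors tied to drug response did not share a direction: 5 of 21 acetylcholine and opioid receptor genes were higher and 5 lower. Oprm1, the mu opioid receptor, was higher on all arrays, at 1.96, 1.5, 1.04, 0.97 and 2.12 (mean 1.52 ± 0.28, adjusted p = 0.000516, limma), as was Chrm1, the muscarinic receptor of pyramidal cells, at 1.86, 1.87, 1.70, 1.35 and 1.43 (mean 1.64 ± 0.26, adjusted p = 0.000262). Both passed when detrended, at 1.16 for Oprm1 and 1.5 for Chrm1. Adrenergic receptors were represented by 2 measured genes, and neither passed.

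Peptides of cortical interneurons were higher or near 0. Cck had ratios of 1.84, 1.42, 2.70, 0.29 and 2.06 (mean 1.66 ± 0.33, adjusted p = 0.00076, limma). Sst had 1.26, 1.71, 2.15, 1.14 and 0.67 (mean 1.39 ± 0.28, adjusted p = 0.000976), and Npy 1.10, 1.10, 2.09, 0.50 and 1.18 (mean 1.20 ± 0.28, adjusted p = 0.00254). Array 3 was highest for all 3 peptides. Of them only Cck passed when detrended, at 0.80 (adjusted p = 0.0373); Sst was at -0.01 and Npy at 0.57. Vip, of another interneuron class, had a mean of 0.15 ± 0.25. Pdyn, the dynorphin precursor, was at -4.86 on array 3, and without replicate 3 its mean was 0.93 (adjusted p = 0.0495). Of the 17 measured neuropeptides 6 were higher and 1 lower (35.3% and 5.9%), against 29.6% and 26% over all genes. Detrended, 2 were higher and 1 lower (11.8% and 5.9%), against 19.1% and 17.4%.

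For the transmitter GABA the enzymes differed. Abat, which breaks GABA down, was among the 10 lowest of the probes that had 1 sign on all arrays and passed both as centred and detrended, with ratios of -2.14, -4.0, -2.84, -3.03 and -2.23 (mean -2.85 ± 0.30, adjusted p = 0.000149, limma), and stayed lower when detrended (-1.56). Its adult occipital mean was -1.88 ± 0.46 (SD, n = 5) and its fetal frontal mean -1.88 ± 1.22 (SD, n = 5). The Abat probe lay at percentile 0.7 of the brightness score, and 63.3% of the dimmest 10% of probes passed lower as centred. Gad1, which makes GABA, had 0.31, 0.65, 1.05, 0.49 and 0.02, all above 0, and did not pass (mean 0.50 ± 0.27, adjusted p = 0.119). Its detrended mean of 1.15 did (adjusted p = 0.00786). Gad2 had a pair of probes with means of 1.36 ± 0.26 and -0.17 ± 0.29. Pvalb, the marker of fast-spiking interneurons, had a mean of 0.58 ± 0.26 that did not pass. Of 15 measured GABA-A receptor subunit genes 4 were higher and 1 lower (26.7% and 6.7%), against 29.6% and 26% over all genes. Detrended, 2 were higher and 1 lower (13.3% and 6.7%), against 19.1% and 17.4%.

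Of 19 glutamate receptor genes, 6 were higher and 4 lower, and the probes of another gene disagreed; detrended, 3 were higher and 0 lower, with a median of -0.05 against 0.33 as centred. Gria1, a subunit of AMPA receptors, had 0.98, 1.49, 1.67, 0.83 and 1.26 (mean 1.25 ± 0.26, adjusted p = 0.00122, limma), and a detrended mean of 0.49 that did not pass. Grin2a and both Grin2b probes, for NMDA receptor subunits, did not pass, with means of 0.17, -0.12 and 0.76; without replicate 4 the higher Grin2b probe had a mean of 1.13 (adjusted p = 0.0129).

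Many genes of transmitter release were higher as centred. Of 25 measured genes of the synaptic vesicle release list, 19 were higher and 1 lower (76% and 4%), and detrended 11 were higher and 0 lower. The 19-array counts were 6 and 0, with a list median of 0.34 against 1.13 as centred. Snap25, a membrane-fusion protein of the nerve ending, had ratios of 1.66, 1.5, 2.60, 1.04 and 1.18 (mean 1.60 ± 0.29, adjusted p = 0.000476, limma), and Vamp2, its vesicle partner, 1.97, 1.75, 2.27, 1.39 and 2.01 (mean 1.88 ± 0.26, adjusted p = 0.000189). Every array was above 1 for both. Syp, an abundant vesicle membrane protein, had a mean of 1.75 ± 0.27, Syn1, which tethers vesicles, 1.59 ± 0.28, and both probes of Syt1, the calcium sensor, 1.18 ± 0.29 and 1.46 ± 0.33. Detrended, Snap25 (1.47), Syp (0.75), Syn1 (0.87) and both Syt1 probes (1.78 and 0.97) passed and Vamp2 (0.58) did not. Slc17a7, the vesicular glutamate transporter of cortical pyramidal cells, had 1.84, 1.65, -2.01, 1.11 and 1.66; array 3 stood apart, and without it the mean was 1.56 (adjusted p = 0.00189). The cytoskeleton and growth list of neurons was also high, with 15 of 22 genes higher and 4 lower as centred, while detrended 6 were higher and 1 lower, with a median of 0.18 against 1.13 as centred. Map1a passed with both probes (1.92 ± 0.26 and 1.77 ± 0.27), and Map2 was at -5.54 on array 3 and between 0.32 and 1.47 on the others, with a mean of 0.80 without replicate 3 (adjusted p = 0.0479).

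The immediate early genes, which neurons switch on within minutes of activity, showed both directions: 8 of 28 were higher, 7 lower and 1 disagreed, close to the background. Egr1 had 1.14, 1.56, 1.89, 0.60 and -0.05 (mean 1.03 ± 0.31, adjusted p = 0.0106, limma); without replicate 3 its mean was 0.81 (adjusted p = 0.0555). Arc, whose RNA travels to active synapses, had 1.62, 2.0, 1.0, 0.61 and 0.73 (mean 1.19 ± 0.29, adjusted p = 0.00276), and Nr4a1, an orphan nuclear receptor, 1.33, 1.51, 2.71, 0.27 and 1.91 (mean 1.55 ± 0.33, adjusted p = 0.00115). Detrended, Egr1 passed (1.04) and Arc (0.57) and Nr4a1 (0.58) did not. Fosb, the gene of the long-lived factor that builds up with repeated cocaine in adult striatum, was lower, at -0.70, -1.33, -0.10, -2.03 and -0.18 (mean -0.87 ± 0.31, adjusted p = 0.028). It was lower still when detrended (-1.5, adjusted p = 0.00158), but without replicate 2 or 4 the mean of -0.75 or -0.58 did not pass. Fos had a pair of probes that passed in opposite directions: 1.84, 1.53, 1.21, 0.90 and 1.45 on 1 probe and 0.04, -2.20, -1.22, -2.03 and -2.44 on the other. No direction can be given for Fos.

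Bdnf, the activity-dependent neurotrophin, had ratios of 0.90, 1.37, 1.37, 0.98 and 0.02 (mean 0.93 ± 0.28, adjusted p = 0.0113, limma) and a detrended mean of 0.87 (adjusted p = 0.0202). Array 5 was the exception to an otherwise narrow range. In the stress hormone list, Nr3c1, the glucocorticoid receptor, had 1.69, 1.31, 1.34, 0.35 and 1.49 (mean 1.24 ± 0.28, adjusted p = 0.0018; detrended 0.85, adjusted p = 0.0173). Of 13 genes of that list 4 were higher and 1 lower, and detrended 6 were higher (46.2%) and 1 lower.

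Astrocyte genes were higher without an exception in the other direction: 13 of 18 measured genes passed higher and 0 lower, and detrended 10 (55.6%) and 0. Slc1a3, a glutamate transporter of astrocytes, had ratios of 2.60, 2.19, 0.90, 1.79 and 1.01 (mean 1.70 ± 0.30, adjusted p = 0.000458, limma). Gfap, the intermediate filament of astrocytes, had 0.50, 1.01, 0.90, 1.16 and 0.87 (mean 0.89 ± 0.26, adjusted p = 0.00876), and a detrended mean of 0.51 that did not pass. Aqp4, the water channel of their end-feet, was split by array, at -0.92, 1.07, -0.96, 1.35 and -0.50, with arrays 2 and 4 above 0. The list's medians by array ran between 0.70 and 1.17. Its median was 0.89, against 0.79 in adult occipital and 0.07 in fetal frontal cortex, and 0 of its 21 probes passed either difference as centred. The median difference from fetal frontal cortex was 0.92 as centred and 0.37 detrended, where 2 of the probes passed. Microglial genes were near the background, with 5 of 17 higher and 3 lower; Aif1 was higher (mean 1.51 ± 0.27) and Ptprc lower (-1.25 ± 0.32).

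A myelin gene gave the difference with fetal cortex that passed. Mbp, the basic protein that compacts the myelin sheath, had ratios of 1.58, 2.08, 1.53, 2.74 and 1.21 in adult frontal cortex (mean 1.83 ± 0.29, adjusted p = 0.000264, limma), against -1.85, -2.32, -0.29, -1.28 and -3.82 in fetal frontal cortex. As deposited, all adult ratios were above 0 and all fetal ratios below it, and the difference of 3.74 was the only 1 of 22574 to pass (0.00443%; adjusted p = 0.0157, limma), while 2891 probes (12.8%) had an unadjusted p under 0.05. That count holds for the arrays as centred: detrended, 1104 probes passed, with Mbp at a difference of 3.0 (adjusted p = 0.0112), and with scaled or quantile-normalized arrays 0 passed, with Mbp at 3.75 and 4.06. Detrending used a separate brightness score for each age, and the part of that in the 1104 was not tested. The labels of fetal frontal replicate 1 name both dyes for its first channel, so the direction of its ratios is in doubt; with that array's sign turned the Mbp difference was 3.0 (adjusted p = 0.36) and 0 probes passed. Without single arrays the Mbp difference lay between 3.26 and 4.14. It missed the threshold without adult frontal replicate 1, 2 or 4 (3.80, 3.68 and 3.51) or fetal frontal replicate 1 or 2 (3.75 and 3.64), where 0 probes passed. Of the 20 probes of the myelin list, 9 had means above 0 at both ages, 6, with Mbp, were above 0 in adult frontal and below 0 in fetal frontal cortex, 2 were the reverse and 3 were below 0 at both ages. Trf, the iron carrier transferrin, averaged 1.47 in adult frontal and -0.15 in fetal frontal cortex, and Cldn11, a tight junction protein of myelin, 0.90 and -0.31. Detrended, Trf averaged 0.45 and -0.22, and Cldn11 0.04 and -0.74. As centred, the adult frontal call of Cldn11 was lost without replicate 2 or 3 (means 0.77 and 0.81). The fetal frontal ratios of Trf were 1.29, 0.19, -3.56, 0.49 and 0.85, so that replicate 3 alone lay below 0. Mog, a surface protein of the sheath, averaged 1.5 in adult frontal and 1.05 in fetal frontal cortex, Mag 1.29 and 1.07, Cnp 1.24 and 1.04, and Mobp 1.99 and 1.29. Olig1, a transcription factor of the whole oligodendrocyte lineage, averaged 1.69 in adult frontal and 1.91 in fetal frontal cortex. As centred, Olig2 and Sox10, also on the list, did not share that rise. Olig2 averaged -0.32 in adult frontal and -0.33 in fetal frontal cortex, and Sox10 -0.04 and -0.58. Detrended, Olig2 averaged 0.6 and 0.36 and Sox10 0.75 and 0.1, beside 1.12 and 1.59 for Olig1. The Olig2 and Sox10 probes lay at percentiles 6.1 and 24.6 of the adult brightness score. Ermn, a cytoskeletal protein of mature oligodendrocytes, was lower in adult frontal cortex on all arrays, at -1.09, -0.86, -1.99, -0.75 and -1.28. Of 19 measured myelin and oligodendrocyte genes 9 were higher and 1 lower, and detrended 5 and 2. The adult occipital ratios of Mbp were 2.24, 0.86, 0.44, 2.16 and 0.27.

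**Figure D2:**
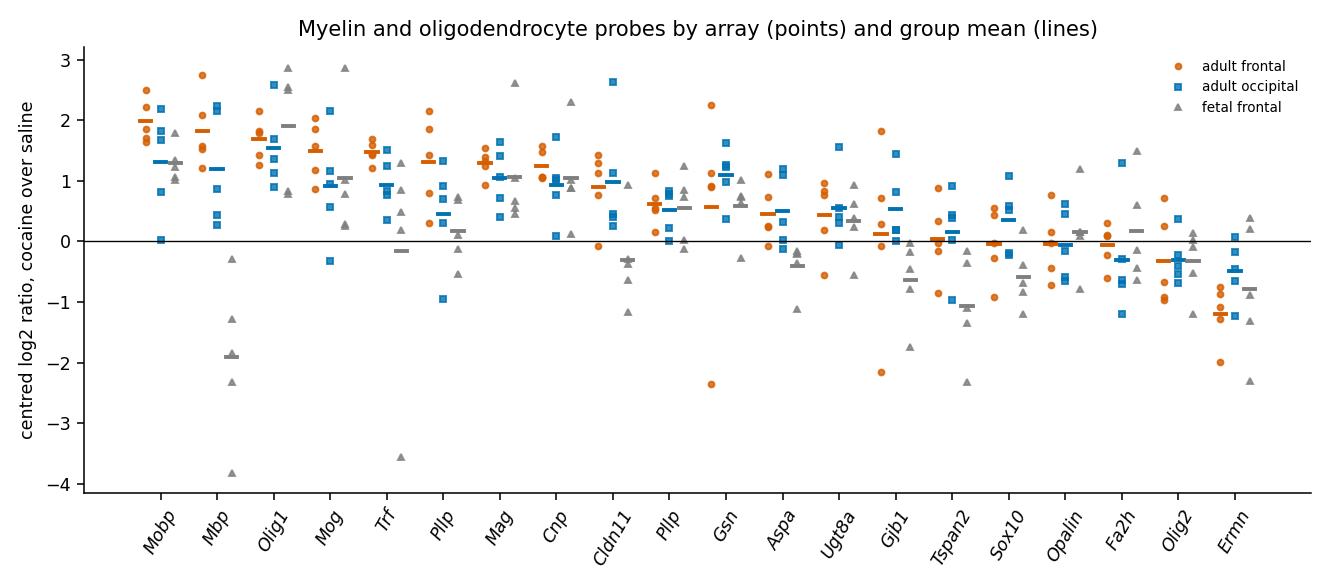
Centred log2 ratio of cocaine over saline (y axis) for the probes of the myelin and oligodendrocyte list (x axis, ordered by the adult frontal mean); points are arrays, lines are means of 5 arrays in adult frontal, adult occipital and fetal frontal cortex. For Mbp the 5 adult frontal arrays lie at 1.21 or above and the 5 fetal frontal arrays at -0.29 or below.

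Genes of mitochondrial energy supply passed higher more often than the background as centred, and in part when detrended. Of 16 measured ATP synthase genes 15 were higher and 0 lower (93.8%), with array medians of 1.10, 1.28, 1.57, 1.01 and 0.98; detrended, 7 were higher and 0 lower. Complexes II to IV and cytochrome c had 21 of 26 higher and 0 lower, and detrended 9 and 0. Complex I had 23 of 34 higher and 1 lower, and detrended 16 and 0. The 19-array counts were 5 of 16 for ATP synthase, 11 of 34 for complex I and 3 of 26 for complexes II to IV, the last below the background of 15.6%, and 0 were lower. Atp5b, the catalytic subunit of ATP synthase, had ratios of 1.57, 1.92, 1.41, 1.52 and 1.69 (mean 1.62 ± 0.26, adjusted p = 0.000265, limma) and passed when detrended (0.95). The members did not all move: Ndufs1, the largest complex I subunit, had a mean of 0.15 ± 0.27, and Uqcrc1, a core protein of complex III, 0.47 ± 0.33. Ndufab1, the acyl carrier protein of complex I, was lower (-1.07 ± 0.27) and was at 0.20 when detrended. Pfkp, a phosphofructokinase of glycolysis, was high on all arrays, at 2.18, 2.04, 2.26, 2.18 and 1.64, and 13 of 19 glycolysis genes were higher and 1 lower.

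Nuclear genes of the respiratory chain are known to carry sites for nuclear respiratory factor 1 in their promoters, and the 10-letter core site of that factor, printed in capitals in the sequences below and the same on both strands, was looked for in a window of 300 bases, 250 before and 50 after the gene's start (RefSeq, GRCm38.p6). It was found in 5 of the 64 matched respiratory chain and ATP synthase genes (7.81%), against 290 of 27025 genes (1.07%). The core sites of ets factors and of the cyclic AMP response element were each found in as many of these genes (7.81%), against 2.6% and 2.03% of all genes. A match describes the letters alone. The 3 promoters shown are of genes that passed higher and that hold the letters, in capitals: Atp5k, a small subunit of ATP synthase, at chr5:108434350-108434649 on the minus strand (mean ratio 1.72 ± 0.27), Cox6a1, of cytochrome c oxidase, at chr5:115348909-115349208 on the minus strand (1.31 ± 0.27), and Ndufa11, of complex I, at chr17:56717512-56717811 on the plus strand (1.35 ± 0.28).
Atp5k: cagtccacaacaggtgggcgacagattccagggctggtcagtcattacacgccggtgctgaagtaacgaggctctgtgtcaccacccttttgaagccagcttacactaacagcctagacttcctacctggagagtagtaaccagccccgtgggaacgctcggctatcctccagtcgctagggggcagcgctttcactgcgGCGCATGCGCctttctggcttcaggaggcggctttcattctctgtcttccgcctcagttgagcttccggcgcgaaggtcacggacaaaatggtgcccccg
Cox6a1: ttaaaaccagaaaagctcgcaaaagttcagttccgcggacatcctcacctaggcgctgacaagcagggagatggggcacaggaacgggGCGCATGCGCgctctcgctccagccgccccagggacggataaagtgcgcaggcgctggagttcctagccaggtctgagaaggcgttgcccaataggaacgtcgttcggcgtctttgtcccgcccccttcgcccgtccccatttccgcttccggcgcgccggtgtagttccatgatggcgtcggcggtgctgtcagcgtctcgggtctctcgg
Ndufa11: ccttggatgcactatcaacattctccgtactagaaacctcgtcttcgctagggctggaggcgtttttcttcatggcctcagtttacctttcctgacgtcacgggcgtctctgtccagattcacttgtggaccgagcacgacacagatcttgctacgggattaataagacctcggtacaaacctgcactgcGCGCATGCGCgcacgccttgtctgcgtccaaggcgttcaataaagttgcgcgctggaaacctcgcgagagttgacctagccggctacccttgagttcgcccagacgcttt
The letters began at base 201 of the window in Atp5k, 89 in Cox6a1 and 191 in Ndufa11. Atp5k had ratios of 1.79, 1.79, 1.69, 1.08 and 2.26 and Ndufa11 1.26, 1.73, 2.03, 0.57 and 1.19, in both with array 4 lowest, and both passed when detrended (1.90 and 0.86). Cox6a1 had 1.47, 1.20, 1.79, 0.57 and 1.55 and did not pass when detrended (0.31). The other genes with the letters were Atp5g2, which was higher (1.13 ± 0.33), and Uqcrc1, which did not pass.

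Genes that make, fold and remove proteins also passed higher in numbers as centred. Of 64 measured cytosolic ribosomal protein genes 53 were higher and 2 lower (82.8%), with array medians between 0.80 and 1.62, and detrended 31 were higher and 3 lower. The 19-array counts were 15 and 5, with a median of 0.17 against 1.26 as centred. Rps24 had ratios of 2.51, 1.48, 2.47, 1.06 and 2.10 (mean 1.93 ± 0.29, adjusted p = 0.000236, limma). Of 33 proteasome genes 25 were higher and 2 lower, and of 25 chaperone genes 16 were higher and 1 lower. Detrended, 11 and 2 of the proteasome genes passed and 8 and 2 of the chaperone genes, and the 19-array counts were 7 and 2, and 6 and 0. A pair of heat shock genes moved apart: Hspa8, the constitutive heat shock protein of neurons, had 2.14, 2.04, 2.03, 1.75 and 0.84 (mean 1.76 ± 0.28), and Hspa1a, the stress-inducible form, -1.21, -2.68, -2.80, -1.97 and -1.99 (mean -2.13 ± 0.29). All arrays agreed in sign for each, and both passed when detrended, at 1.45 for Hspa8 and -0.61 for Hspa1a.

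**Figure D3:**
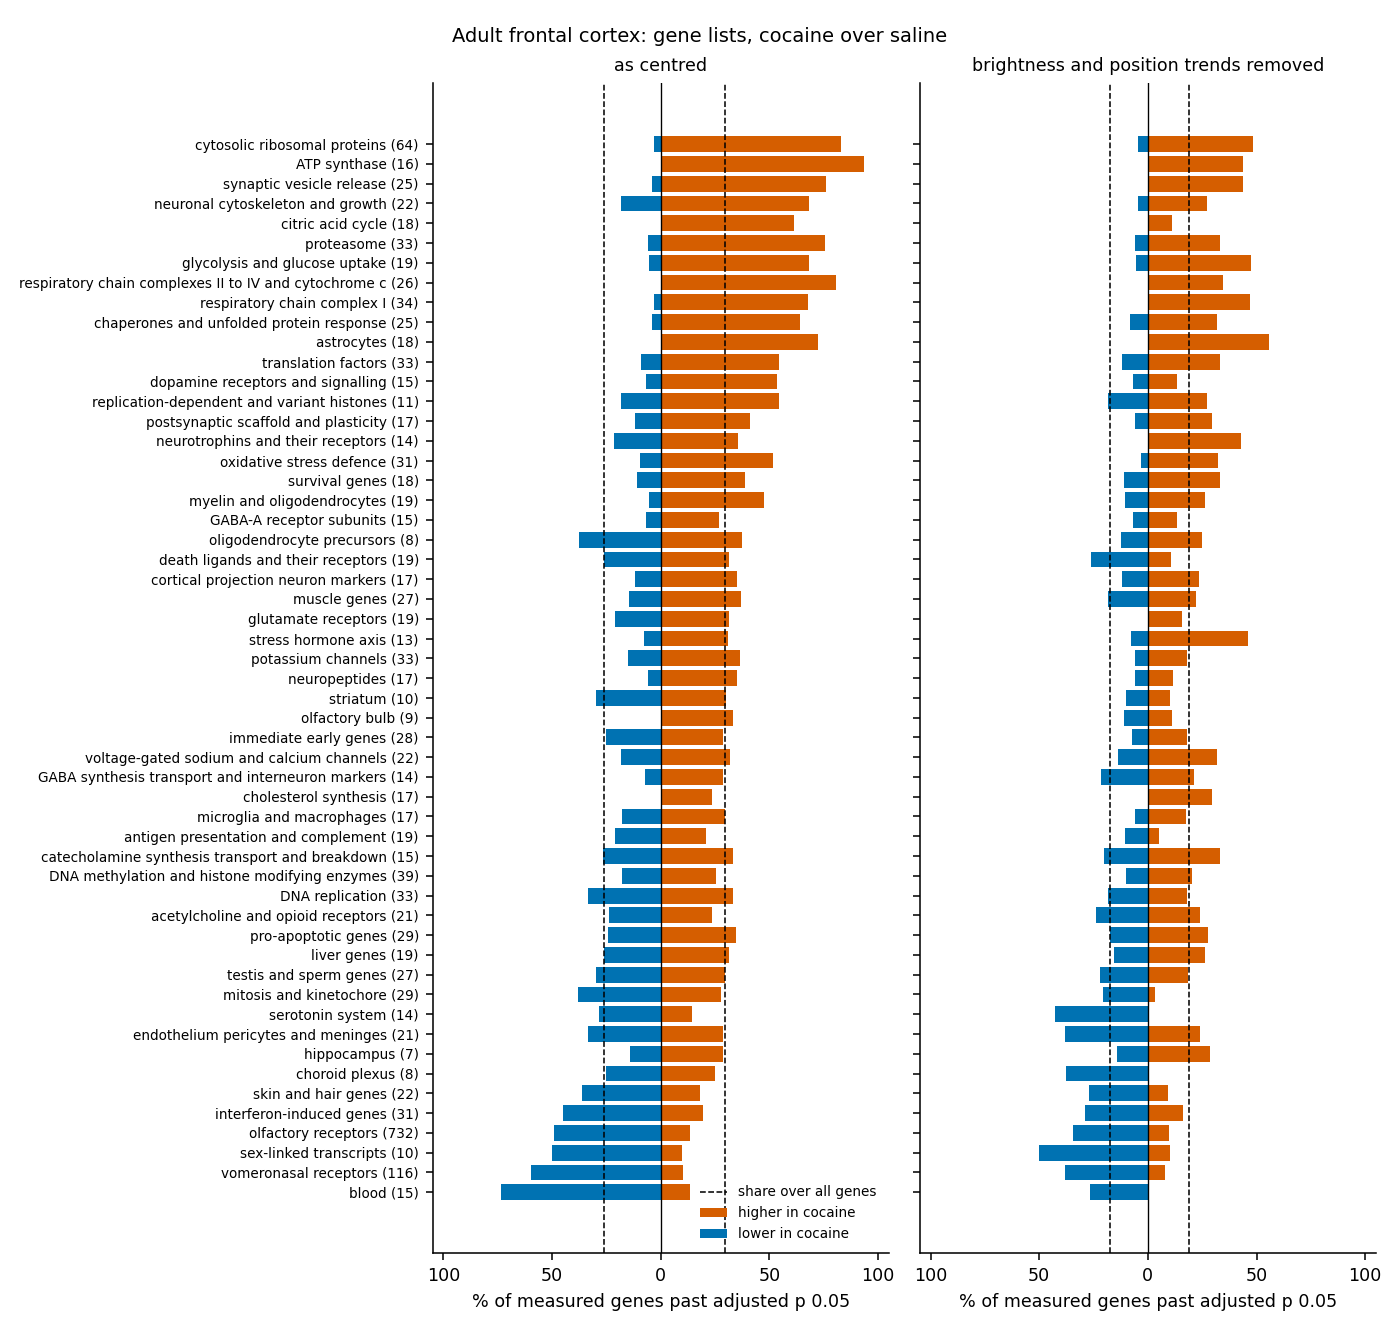
Share of measured genes (x axis, percent) that passed higher (right) or lower (left) in cocaine-exposed adult frontal cortex, for each gene list with at least 7 measured genes (number in brackets), as centred and with the brightness and position trends removed; dashed lines are the shares over all genes. The ATP synthase bar reaches 93.8% higher as centred, and the vomeronasal and olfactory receptor bars extend to the lower side in both panels.

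Genes that carry out or oppose cell death were compared because, per the labels, the dosing schedule is one known to lower cortical mass in offspring. Pro-apoptotic genes were close to the background, with 10 of 29 higher and 7 lower, and survival genes had 7 of 18 higher and 2 lower. Bcl2, which protects mitochondria, had ratios of 1.82, 1.83, 1.63, 1.0 and 2.15 (mean 1.69 ± 0.27, adjusted p = 0.00028, limma), and Bcl2l1, its relative in mature neurons, 1.47, 1.42, 1.59, 0.84 and 1.90 (mean 1.44 ± 0.27). Both passed when detrended (1.38 and 0.72). The initiator caspases differed: Casp9, of the mitochondrial route, was higher (1.37 ± 0.27) and Casp8, of the death receptor route, lower (-1.42 ± 0.27), and of them Casp9 passed when detrended (1.18) and Casp8 did not (-0.44). Tnfsf10, the death ligand TRAIL, was another of those 10 probes, at -3.29, -3.27, -2.22, -4.0 and -2.55 (mean -3.06 ± 0.30, adjusted p = 0.000149; detrended -1.54). In adult occipital cortex it averaged -1.44 ± 0.36 (SD, n = 5). The difference of -1.62 had one of the 3 smallest p-values of the region comparison and did not pass (adjusted p = 0.921, limma). The Tnfsf10 probe lay at percentile 11.8 of the brightness score, toward its dim end.

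Interferon-induced genes, which sense viral RNA and other alarm signals, leaned lower, with 6 of 31 higher and 14 lower (45.2%) and detrended 5 and 9. The 19-array counts were 4 higher and 4 lower, close to the background. Trim30a, which restrains inflammatory signalling, had the lowest mean of the probes chosen in that way, at -2.51, -4.11, -2.54, -3.10 and -3.55 (mean -3.16 ± 0.30, adjusted p = 0.000149, limma; detrended -2.04). Cxcl10, the chemokine, had -1.04, -2.38, -2.58, -1.86 and -2.40 (mean -2.05 ± 0.29; detrended -0.75). Isg15, a ubiquitin-like modifier of the same response, went the other way at 1.80, 1.98, 3.31, 1.69 and 2.45 (mean 2.24 ± 0.29; detrended 1.02). Irf7, the main amplifier of the response, did not pass (-0.25) and passed higher when detrended (0.74, adjusted p = 0.0317). The Trim30a probe lay at percentile 7.3 of the brightness score, toward its dim end.

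Lists of cell types and tissues that the cortical piece should hold little of were counted in the same way. Of 732 measured olfactory receptor genes, which belong to the nose, 98 were higher and 359 lower (13.4% and 49%), with array medians of -0.27, -1.27, -0.58, -0.88 and -0.15; detrended, 70 were higher and 252 lower. Vomeronasal receptors had 12 of 116 higher and 69 lower. Blood genes had 2 of 15 higher and 11 lower, with Alas2, the heme enzyme of red cell precursors, at -1.86 ± 0.28 and Hba-a1, a globin, at 1.28 ± 0.32; detrended, 0 were higher and 4 lower. Genes of sperm had 8 of 27 higher and 8 lower, those of muscle 10 of 27 and 4, and those of liver 6 of 19 and 5. Prm1, the sperm protamine, was among the 10 highest of the probes that had 1 sign on all arrays and passed both as centred and detrended, at 3.12, 2.46, 3.14, 1.38 and 2.25. Genes of these tissues thus passed in numbers, in both directions, on the same arrays as the cortical genes. Xist, the RNA of the inactive X chromosome, was lower (-0.39, -2.86, -2.69, -2.09 and -0.86) and so was Kdm5d of the Y chromosome (-0.57, -1.84, -0.67, -2.52 and -0.07), while Uty, also of the Y chromosome, was at 0.05 ± 0.28; the call of Kdm5d was lost without replicate 4 (mean -0.79), and the sexes of the mice are not given in the labels.

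Calls followed the brightness score, which was built from ratios and was not checked against measured intensities. Dim and bright mean low and high on that score. Between the dimmest and the brightest 10% of probes the median ratio ran between -1.09 and 0.88. The share called higher ran between 3.7% and 58.2%, and the share called lower between 63.3% and 2.4%. The Spearman correlation of mean ratio and score was 0.50 over 22556 probes, a description across probes of the same arrays, and -0.04 after detrending. On the single arrays, against a score from the other arrays of the same age, the correlation lay between 0.53 and 0.60. Some lists lay toward the ends of the adult occipital score: the median percentile was 79.9 for synaptic vesicle release, 74.4 for complex I and 70.9 for ribosomal proteins, and 34 for vomeronasal receptors and 34.8 for blood. Others did not follow it. ATP synthase was at 52.3 and glycolysis at 53.5 with most genes higher, and the death ligands at 70.6 and the catecholamine list at 68.7 were near the background, as were the dimmest lists, choroid plexus at 26.1 and liver at 30.4. The part of brightness in these values was not tested beyond the removal of its trend.

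**Figure D4:**
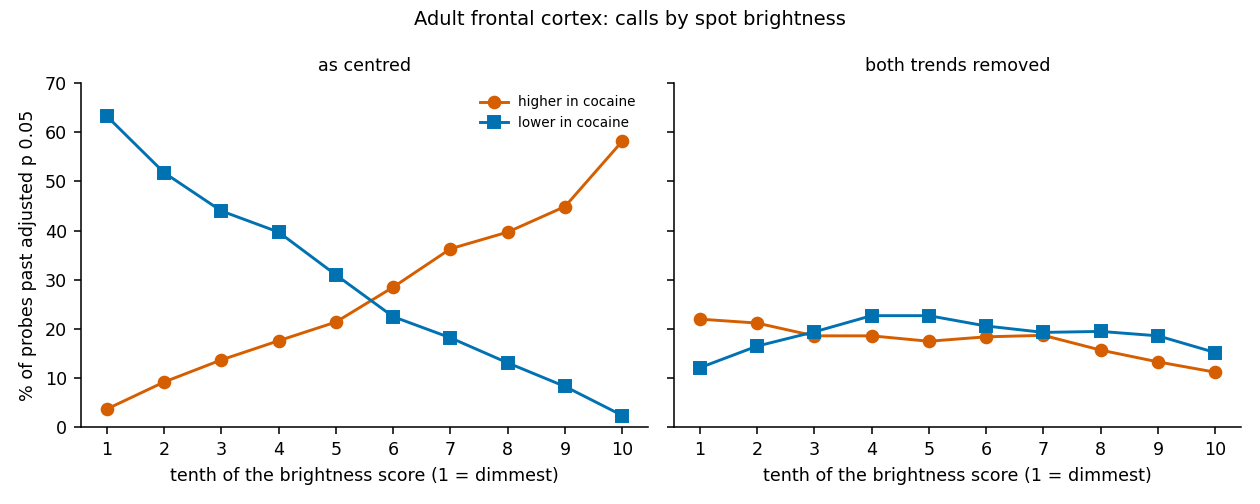
Percent of probes past the threshold (y axis) in each of 10 equal groups by brightness score (x axis, 1 the dimmest), higher and lower in cocaine-exposed adult frontal cortex, as centred and with both trends removed. As centred, the share called lower is 63.3% in the dimmest group and 2.4% in the brightest.

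How far a ratio belonged to its gene was read from genes with several spots. For 48 genes the array carried at least 10 spots of 1 accession, and the SD between the spots of a gene was 0.08 to 0.51 (median 0.29), against an SD of 0.89 between the medians of these genes. All spots passed higher for 6 genes and lower for 3, while 12 genes had 0 passing spots and 27 had some; for 0 genes did spots pass in both directions. Detrended, 0 genes had all spots higher or all lower, and for 16 genes spots passed in both directions. Sod1, the cytosolic superoxide dismutase, had 10 spots with means of -0.90 to -0.38, of which 6 passed lower, and a probe of another accession at 0.60. Detrended, 1 of the 10 spots passed lower and their median was -0.04, and without replicate 2 all 6 calls were lost.

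Different probes of a gene were further apart. For 682 genes with a pair of probes from different accessions, the means of the probes correlated at r = 0.07 across genes, with a median gap of 0.99, and 125 genes had both probes passing the same way against 92 in opposite ways. For 348 genes with a pair from 1 accession r was 0.31, with a median gap of 0.79, and 78 against 22. The same probes correlated at 0.91 between adult frontal and adult occipital cortex. Detrended, r was -0.01 for different accessions and 0.13 for 1 accession. Some of the opposite pairs lie in the lists above: Fos at 1.38 and -1.57, Xiap, an inhibitor of caspases, at -1.22 and 0.92 (the call of the higher probe was lost without replicate 2 or 3, at 0.77 and 0.80), and Syn3, a synapsin, at -2.10 and 1.02. These were chosen after their values were seen. Of the 1193 genes with several probes, 134 had all of them higher and 87 all lower. Those with the largest of the smaller means were Map1a, Hmgb1 (1.67 and 1.65), a chromatin protein, Cbx3 (1.65 and 1.70), a heterochromatin protein, Kif5a (1.70 and 1.62), a motor of axonal transport, and Abhd1 (1.59 and 1.77), and on the lower side Vps13b (-1.79 and -1.79), a lipid transfer protein, Vmn2r122 (-1.69 and -1.69), Enpp3 (-1.65 and -1.90), Creb5 (-2.0 and -1.63), a transcription factor, and Ppp1r9a (-1.93 and -1.56), the synaptic protein neurabin. Detrended, both probes passed for Map1a, Kif5a and Enpp3, 1 of the pair for Hmgb1, Cbx3, Abhd1, Vmn2r122, Creb5 and Ppp1r9a, and 0 for Vps13b (-0.61 and -0.69).

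**Figure D5:**
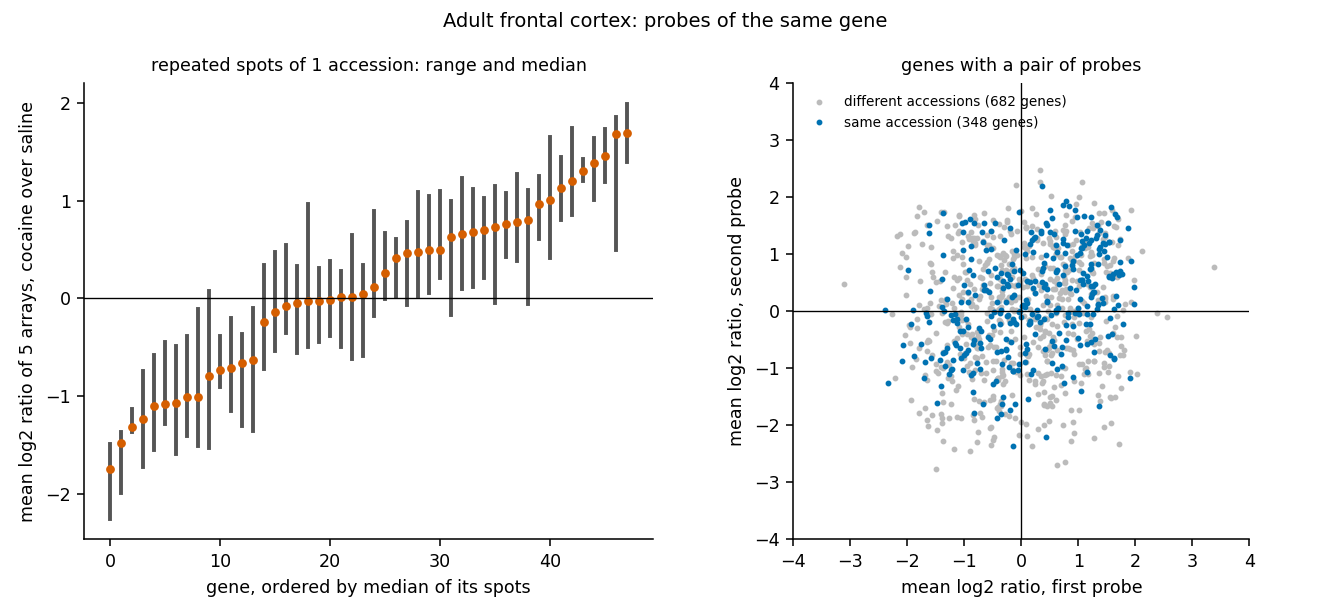
Left, range (line) and median (point) of the mean log2 ratio over the repeated spots of each of 48 genes in adult frontal cortex (y axis). Right, mean log2 ratios of the probes of genes with a pair of probes, 1 point a gene, for 348 pairs of 1 accession and 682 pairs of different accessions; the pairs of different accessions fill all quadrants (r = 0.07).

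The study dissected frontal and occipital cortex apart, so the response of the regions can be compared. No probe passed for a difference between adult frontal and adult occipital cortex (limma, 0 of 22569), with 953 (4.22%) at an unadjusted p under 0.05, of which 341 were higher in frontal cortex. The means of the regions correlated at r = 0.92 across 22575 probes, and 12674 of the 12808 passing probes had the same sign in occipital cortex. The median size of the difference was 0.30, with a median SE of 0.39. The frontal ratios were the larger, with a median size of 0.84 against 0.72 in adult occipital and 0.60 in fetal frontal cortex. The arrays were not scaled, and their spread differed. The median absolute deviation was 0.663 to 1.183 on adult frontal and 0.621 to 0.934 on adult occipital arrays. Adult frontal replicates 1 and 5 were at 0.663 and 0.677. The part of array spread in the sizes was not tested. With fetal frontal cortex the adult frontal means correlated at r = 0.82. Detrended, r was 0.85 with adult occipital and 0.44 with fetal frontal cortex. Adult and fetal arrays were detrended with different brightness scores, each from arrays of their own age. The part of that in the detrended values was not tested. The correlations are descriptions across probes, which share arrays and probe sequences. The median of the dopamine list was 0.79 in adult frontal cortex, against 0.39 in adult occipital and 0.20 in fetal frontal cortex, and 0 of its probes passed either difference in limma.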

How the data were processed

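The values are log2 ratios that the authors deposited, 1 for each probe and array; how the submitters subtracted background and normalized them is not given in the sources used here. No intensities were used, so signal over background is unknown. Per the labels' protocols each slide was an Agilent array hybridised with cDNA of both groups and detected with a dendrimer kit. Values equal to an array's maximum were set to missing, the arrays were median-centred, and the mean of each probe with at least 3 values was tested against 0 with limma 3.58.1 in R 4.3.3 (two-sided, Benjamini-Hochberg adjustment over all probes, threshold 0.05). Differences between groups were tested in the same way. The p-values measure the spread between these arrays, whose number limits the precision.

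For the detrended values, loess curves (span 0.3) against a brightness score and against probe position were subtracted from each array. The score was built from the ratios of other arrays of the same age. It rests on how small a pair of whole numbers could give each ratio as a quotient. A larger pair was read as a brighter spot. The limma fit was also run on simulated independent noise that held no brightness or position trend. That run cannot vouch for calls on arrays with such trends. Of the probes 18218 had 1 gene symbol, 16 several and 4341 none, by the platform annotation; 18175 were matched to RefSeq by gene ID.

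A gene counts as higher or lower if at least 1 probe passes and none passes the other way. No set test was made. Members, gene lists and alternatives were chosen with earlier results of these data known. Genes were named as core members of the lists or by smallest p within a list, as the 10 highest and 10 lowest probes with 1 sign that passed as centred and detrended, or as genes whose several probes all passed with the largest least mean; a few striatal, promoter and opposite-probe examples were added after their values were seen. Alternatives were other normalizations, filters, array weights, trends and left-out arrays. The labels do not say that equal replicate numbers mean the same animals, so the arrays were not paired. A fit with the replicate number as a block was run as an alternative.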

Additional observations from a re-analysis of the deposited data

Results flagged for a closer look

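Single arrays that lay far from the other 4 were found for 5 of the named probes. Map2, a dendritic microtubule protein, was at -5.54 on replicate 3, Pdyn, the dynorphin precursor, at -4.86 on replicate 3, and Slc17a7, the vesicular glutamate transporter, at -2.01 on replicate 3. On the other 4 arrays Map2 and Slc17a7 were above 0, and Pdyn was at 0 or above. Nr3c1, the glucocorticoid receptor, was at 0.35 on replicate 4, below the others, and 1 of the Sod1 probes was at -0.25 on replicate 3. By chance about 1 in 20 groups of 5 values shows such a gap, and 0 of the 55 list medians did.

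Mbp differed between ages, with adult frontal minus fetal frontal at 3.74 on the log2 scale in limma.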

How the results depend on the processing

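Of 22575 probes 12808 passed, and leaving out 1 array gave 10911 to 12761. With trends removed fewer passed: 7024 without the brightness trend, 8169 without both trends, and, with a score from the 19 other arrays (chosen after seeing the data), 5626 and 6770. With both trends removed and 1 array left out, 5331 to 7759 passed (6756, 5523, 5331, 5596 and 7759). The cause was not tested. The difference from adult occipital cortex had 0 probes under every alternative run, and 0 with the replicate block. The difference from fetal frontal cortex, 1 probe, had 1 with the replicate block, 6 in a model of all 20 arrays, 0 with scaled or quantile-normalized arrays, 551 without the brightness trend, 3 without the position trend, 1104 without both, 0 with the sign of fetal frontal replicate 1 turned (chosen after seeing the data), and 0 to 2 without single arrays. Adult and fetal arrays had the brightness trend removed with different scores. The labels do not say whether equal replicate numbers pair the arrays. By deviations from the group mean, equal numbers correlated at -0.08 to 0.38 with adult occipital and -0.05 to 0.16 with fetal frontal arrays. The best other number gave 0.03 to 0.4 and 0.03 to 0.19, so the pairing stays unknown. Between 34 and 41 of 55 lists had more genes higher than lower, against 38 as reported.

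The medians of 18 of the 55 lists changed sign under some alternative, 9 of them without both trends; most of these lay nearer to 0 than the SD of their array medians. For the lists farther from 0, and for named probes, directions turned as follows. Without the brightness trend the list medians were -0.01 for glutamate receptors and -0.16 for oligodendrocyte precursors, and without both trends -0.05 and -0.08. With the 19-array score they were -0.03 (brightness) and -0.16 (both) for the precursors and -0.10 (brightness) for histones. Leaving out 1 array, the pro-apoptotic median lay between -0.24 and 0.01 (without replicate 5). Without the brightness trend 1 Drd1 probe was at -1.02, Ndufab1 at 0.094 and 1 Sod1 probe at 0.43. Without both trends that Drd1 probe was at -0.87, Irf7 at 0.74, Ndufab1 at 0.20, Pde1b at -0.20, Sst at -0.014 and 3 Sod1 probes at 0.18, 0.041 and 0.35. With the 19-array brightness score Cox6a1 was at -0.012, Htr7 at -0.088, Irf7 at 0.87, Ndufab1 at 0.071, a Sod1 probe at 0.14 and a Xiap probe at 0.13. With both trends by that score Cox6a1 was at -0.087, Irf7 at 0.79, Ndufab1 at 0.082, Npy at -0.033, Pde1b at -0.16, Slc6a3 at 0.036, Sst at -0.18, a Xiap probe at 0.13 and 2 Sod1 probes at 0.24 and 0.027. Leaving out 1 array, Map2 lay between -0.95 and 0.80 and Pdyn between -0.78 and 0.93, both highest without replicate 3. Without both trends, of 128 named probes 58 passed as before in the same direction, 41 no longer passed, 9 newly passed and 20 passed in neither; the 8 that turned are among the 41 and the 9. Missing intensities and 5 arrays limit every value.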
